A study of Chamaelirium luteum with 2 samples.

Results

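The regions described here are the accessible-chromatin peaks of *Chamaelirium luteum* (*Cha. luteum*) leaf nuclei that lie in the most peak-rich stretches of the genome outside the centromeres. Scaffolds 1 to 22 of the authors' assembly were cut into full windows of 1 Mb from position 1, and windows touching 1 of the 8 centromere intervals listed in the study's supplement were dropped, which left 611 windows. The members are the peaks whose summit, the point of highest signal, lay in a window with 85 or more summits as the mean of the 2 libraries. The windows were thus selected on the summit counts themselves, so their counts are given as a description and were not tested. The rule chose 58 windows, 9.49% of the 611, and 10574 of the 80618 peaks listed in both libraries together.

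The study compared *Cha. luteum*, a lily relative whose chromosomes carry unusually large single centromeres, with a sister genus whose centromeres run along the whole chromosome. The series holds 2 ATAC-seq libraries, replicates 1 and 2 of 1 condition, made from nuclei of fresh *Cha. luteum* leaves, with about 75000 nuclei and the transposase TDE1 in each reaction. The labels do not say whether the replicates came from separate plants, so the SD between them may be technical. The labels of both libraries carry the same code, whose meaning they do not give, while the peak names within the list of replicate 2 carry another code, and the labels were followed.

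ATAC-seq uses a transposase that inserts sequencing adapters into DNA not wrapped in nucleosomes or packed into heterochromatin, so places with many insertions mark open chromatin. In plants such places lie mainly at promoters and at other regulatory sequences near genes, while satellite arrays and silenced transposable elements are mostly closed. A stretch with many peaks is therefore one with many separate open sites. No gene annotation or genome sequence was used here, so the peaks are described by position only and were not assigned to genes or sequence motifs.

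The lists held 39233 peaks in replicate 1 and 41385 in replicate 2, of which 37346 and 39289 had their summit in the 611 windows. The 58 dense windows held 5171 peaks of replicate 1 and 5403 of replicate 2. That was 13.8% of the summits of the 611 windows in each library, in 9.49% of their length. The count of a dense window had a median of 88 (79 to 109) in replicate 1 and of 91.5 (84 to 117) in replicate 2. As the mean of the libraries the median was 89.75 summits, and the other 553 windows had a median of 62.5. The plot of counts by library shows a single cloud along the diagonal with the dense windows at its upper end, without a gap at the threshold.

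**Figure D1:**
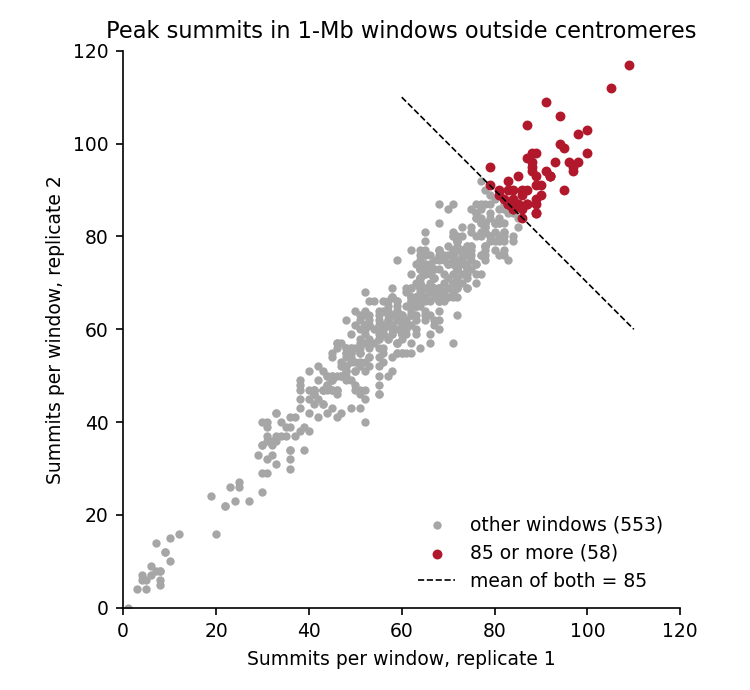
Number of peak summits in each of the 611 full 1-Mb windows outside listed centromeres in replicate 1 (x axis) and replicate 2 (y axis), with the 58 windows averaging 85 or more in red, the other 553 in grey and the threshold as a dashed line. The dense windows continue the cloud of the other windows, with counts of 79 to 109 in replicate 1 and 84 to 117 in replicate 2.

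The fullest window was the third of scaffold 18, from 2000001 to 3000000, with 109 summits in replicate 1 and 117 in replicate 2. Next came the window of scaffold 1 from 16000001 to 17000000 with 105 summits in replicate 1 and a mean of 108.5, and that of scaffold 2 from 16000001 to 17000000 with 100 and 103. A mean of exactly 100 was reached on scaffold 1 from 55000001 to 56000000 (91 and 109), on scaffold 2 from 57000001 to 58000000 (98 and 102) and on scaffold 15 from 1000001 to 2000000 (94 and 106). These 6 were the windows with 100 or more. A further 23 windows averaged at least 90, which makes 29 in all, so the 58 windows were split evenly around 90 summits.

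Many windows lay close to the threshold. Exactly 85 summits were reached by 9 windows, among them scaffold 2 from 17000001 to 18000000 with 84 and 86 summits, scaffold 2 from 33000001 to 34000000 with 86 and 84, and scaffold 4 from 15000001 to 16000000 with 81 and 89. Another 9 windows missed it with 84 or 84.5 summits. Of these, scaffold 9 from 23000001 to 24000000 had 82 and 87 summits, scaffold 9 from 32000001 to 33000000 had 84 and 85, and scaffold 15 from 3000001 to 4000000 had 77 and 92. The windows just inside and just outside thus differed by less than their own 2 libraries did.

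The choice of windows differed somewhat between the libraries. Of the 58 dense windows, 44 had 85 or more summits in replicate 1, 57 in replicate 2 and 43 in both. Among the other windows, 2 reached 85 in replicate 1 and 21 in replicate 2. Replicate 2, the longer list, had the higher count in 43 dense windows, replicate 1 in 11, and 4 windows were equal. The median difference was 3.5 summits in dense windows and 3 in the others.

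Dense windows were found on 17 of the 22 scaffolds, and scaffolds 2 and 7 carried the largest numbers. Scaffold 2 had 11 among 65 windows (16.9%) and scaffold 7 had 10 among 43 (23.3%), together 21 of 108 (19.4%) against 37 of 503 (7.36%) on the remaining 20 scaffolds. The short scaffold 12 had 3 of 14 windows (21.4%), a share between those of scaffolds 7 and 2. Scaffolds 1 and 4 had 5 each, scaffold 8 had 4, and scaffolds 13 and 14 had 3 each. At the other end, scaffold 3 had 1 of 48 windows, and scaffolds 16, 17, 19, 20 and 21 had none. Scaffold 17 contributed only 2 windows and scaffold 20 contributed 0 to the 611, since their listed centromeres take up most of their length, whereas scaffolds 16, 19 and 21 had 14, 12 and 11 windows. Scaffolds with a listed centromere had 17 dense windows among 224 (7.59%), and those with none listed had 41 among 387 (10.6%). For these 41 windows the position on a chromosome arm rests only on the absence of a listed interval.

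**Figure D2:**
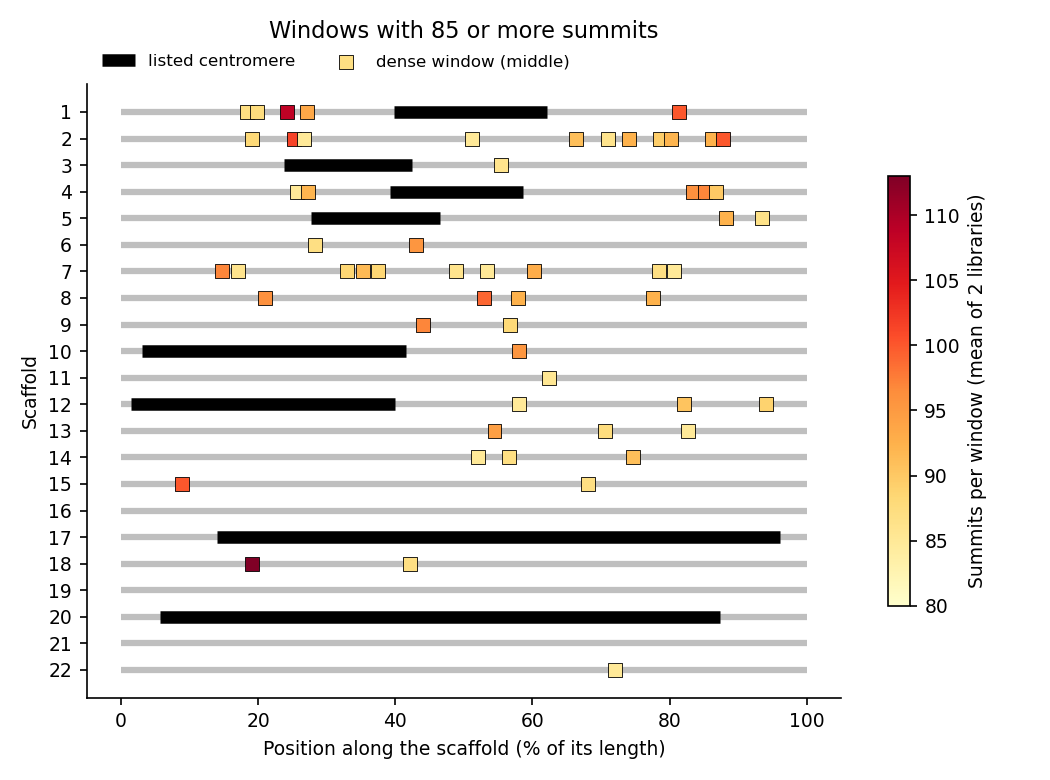
Positions of the 58 dense windows along scaffolds 1 to 22, with the x axis in % of scaffold length, squares at the middle of each dense window coloured by its summit count (mean of 2 libraries), and black bars for the 8 listed centromere intervals. Dense windows lie on 17 scaffolds, with 11 on scaffold 2 and 10 on scaffold 7, and 1 dense window has an edge within 1 Mb of a scaffold end.

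Few of the full windows near scaffold ends were dense. Only 1 of the 39 windows starting or ending within 1 Mb of a scaffold end was dense (2.56%), on scaffold 12 from 23000001 to 24000000. From 1 to 2 Mb it was again 1 of 39, from 2 to 5 Mb 6 windows (5.26%), from 5 to 10 Mb 17 of 146 (11.6%) and beyond that 33 of 273 (12.1%). The median count of all windows was 54 and 58 summits in the terminal classes and 67, 68 and 64.5 in the inner ones. The median distance of a dense window from the nearest end was 12 Mb, with a highest value of 31.5 Mb, and that of the other windows was 8 Mb. The grid left out the last, incomplete piece of each scaffold, and some of these pieces were rich in peaks. Outside the full windows there were 38 pieces of 19.7 Mb in all, which held 1043 summits in replicate 1 and 1178 in replicate 2. Of the 23 pieces of at least 0.5 Mb, 3 had 85 or more summits per Mb, and all 3 were scaffold ends. They were on scaffold 6 from 47000001 to 47624097 (51 and 65 summits, 92.9 per Mb), on scaffold 13 from 24000001 to 24787866 (71 and 65, 86.3 per Mb) and on scaffold 16 from 14000001 to 14908028 (71 and 85, 85.9 per Mb).

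None of the dense windows lay within 2 Mb of a listed centromere edge, where 22 windows were counted in all (11 within 1 Mb and 11 from 1 to 2 Mb). The nearest was 4.04 Mb away. From 2 to 5 Mb, 2 of 30 windows were dense (6.67%), from 5 to 10 Mb 4 of 50 (8%) and beyond 10 Mb 11 (9.02%). Over the 17 dense windows on scaffolds with a listed centromere the median distance was 12.6 Mb, and over the other windows of those scaffolds it was 10.8 Mb. With so few windows near the edges these shares are given as counts only, and no test was made.

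Most dense windows stood alone. Of the 58, 22 (37.9%) adjoined another dense window and 36 did not, which gave 46 separate stretches. Among these, 8 were 2 windows long, 2 were 3 windows long and none was longer. The longer ones were on scaffold 4 from 50000001 to 53000000, with 284 summits in replicate 1 and 282 in replicate 2, and on scaffold 7 from 14000001 to 17000000, with 264 and 273. Their densities were 94.3 and 89.5 summits per Mb. All 10 stretches of 2 or 3 windows were on scaffolds 1, 2, 4, 7 and 14, and 12 of the 17 scaffolds with a dense window had none.

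Of the 36 windows that stood alone, 18 (50%) had another dense window within 3 windows, and in 8 of these the next one was exactly 2 windows away. Among the 466 other windows that did not border a dense one, 113 (24.2%) had a dense window at the same distance. These shares are a description, since scaffolds with many dense windows weigh on both. Only 4 windows were the sole one on their scaffold, those of scaffolds 3, 10, 11 and 22. The 87 windows that bordered a dense one without being dense had a median of 69 summits (22 to 84.5), and the 466 windows neither dense nor bordering had a median of 61. Of the 87, 55 had 65 or more summits and 8 had fewer than 45, so that some dense windows fell off steeply within 1 Mb. The median count of the windows next to a dense window, averaged over both sides, was 73.5 (46 to 93), against 67.5 for windows with 65 to under 85 summits, 63.9 for 45 to under 65 and 50.5 for under 45.

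The grid cut some peak-rich stretches into pieces. When a 1-Mb frame was moved in steps of 50 kb, an alternative chosen after seeing the data, 9.74% of the 12052 frames had 85 or more summits, and they merged into 95 stretches on 19 scaffolds. The median stretch was 1.5 Mb long and 24 were longer than 2 Mb. The longest reached 4.05 Mb, on scaffold 1 from 15300001 to 19350000 with 356 and 376 summits, and again on scaffold 14 from 10150001 to 14200000 with 325 and 346. A merged stretch can average fewer than 85 summits per Mb. The mean was 90.4 per Mb in that of scaffold 1 and 82.8 in that of scaffold 14. The fullest frame was on scaffold 4 from 51400001 to 52400000 with a mean of 117 summits, followed by scaffold 7 from 15650001 to 16650000 with 115.5. The window of scaffold 18 from 2000001 to 3000000, with 113, thus led only on the fixed grid. Scaffolds 16 and 21, without a dense window on the grid, reached 93 and 86 summits in a shifted frame.

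Within the dense windows the summits were packed at a median distance of 7.09 ± 0.247 kb (SD, n = 2 libraries) between neighbours, taken per window and then as the median over windows. In the other windows it was 9.17 ± 0.167 kb. A shorter distance follows from the choice of full windows, so the shape of the spacing was described relative to its mean. The coefficient of variation (CV), the SD of the distances in a window divided by their mean, had a median of 1.10 in dense windows in both libraries, and of 1.17 in the others as the mean of both. The difference was -0.0670 ± 0.00866 (SD, n = 2 libraries). A CV of 1 is what uniform random placement gives for long windows, so dense windows were nearer to that value than the rest, yet still above it. The CV fell with the count, from 1.24 under 45 summits to 1.20 from 45 to under 65 and 1.13 from 65 to under 85. How far the choice by count set the CV of dense windows was not tested. On the 17 scaffolds with dense windows the CV was lower in both libraries on 10, higher on 4 and mixed on 3.

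**Figure D3:**
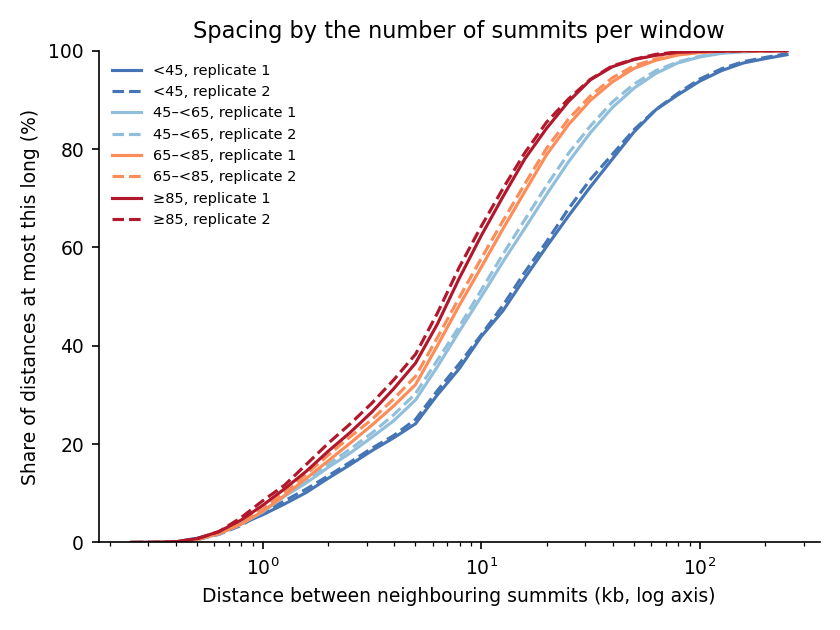
Cumulative share (%) of distances between neighbouring summits within a window, against distance in kb on a log axis, for windows with under 45, 45 to under 65, 65 to under 85 and 85 or more summits, with replicate 1 as solid and replicate 2 as dashed lines. Beyond 2 kb the curves are ordered by count, and in the dense windows 15.7% (replicate 1) and 14.5% (replicate 2) of distances were 20 kb or longer.

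The shares of short and long distances follow in part from the count that chose the windows and are given as a description. Distances of 20 kb or more made up 15.1% ± 0.852 of those in dense windows and 24.8% ± 0.987 of those in the others. Under 1 kb the shares were 7.97% ± 0.656 and 6.37% ± 0.242, and from 1 to 2 kb 11.4% ± 0.467 and 9.93% ± 0.405 (SD, n = 2 libraries throughout). The shortest distance between summits in a dense window was 341 bp in replicate 1 and 303 bp in replicate 2, which is near the width of a peak. The median over windows of the longest distance was 66.1 kb in dense windows, 79.2 kb in windows with 65 to under 85 summits and 154 kb in those under 45.

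A distance of 5 kb marked a step in the spacing of both kinds of window. In dense windows, the count of neighbouring distances per 1-kb step fell beyond 2 kb to 253 in replicate 1 and 266 in replicate 2 from 4 to 5 kb, and then stood at 316 and 361 from 5 to 6 kb. In the other windows the same steps held 1284 and 1406, and then 1792 and 1892, so the rise at 5 kb was not limited to dense windows. The background that the peak caller modelled for dense-window peaks fell with the distance to the nearest summit from 3 to 7 kb. At 3 to 4 kb the medians of replicates 1 and 2 were 7.43 and 6.91 fragments, and they were 6.77 and 6.05 at 4 to 5 kb, 5.57 and 5.28 at 5 to 6 kb, and 5.09 and 4.95 at 6 to 7 kb. In the other windows the medians were 7.10 and 6.72 fragments at 3 to 4 kb, 6.66 and 6.29 at 4 to 5 kb, and 5.32 and 5.03 at 5 to 6 kb. The fall at 5 kb was thus larger than that at 4 kb in the other windows of both libraries. The same held in the dense windows of replicate 1, while in those of replicate 2 the fall at 4 kb was the larger. How far the local background of the peak caller set the number of close neighbours was not tested.

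Even dense windows held long stretches without a peak. The longest gap per window, free of peaks in either library, had a median of 64.2 kb (35.4 to 129.8 kb), and in 7 of the 58 windows it exceeded 100 kb. The longest were on scaffold 14 from 11656601 to 11786371 (129.8 kb) and from 16144133 to 16273152 (129.0 kb), and on scaffold 13 from 17088913 to 17217547 (128.6 kb). In pieces of 100 kb, 0.259% ± 0.122 of those in dense windows had no summit and the median piece held 9 (SD, n = 2 libraries). Few empty pieces follow from the number of summits per window, on which the windows were chosen. The plot of the 10 fullest windows shows summits over the whole length of each window, with most positions shared by the libraries.

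**Figure D4:**
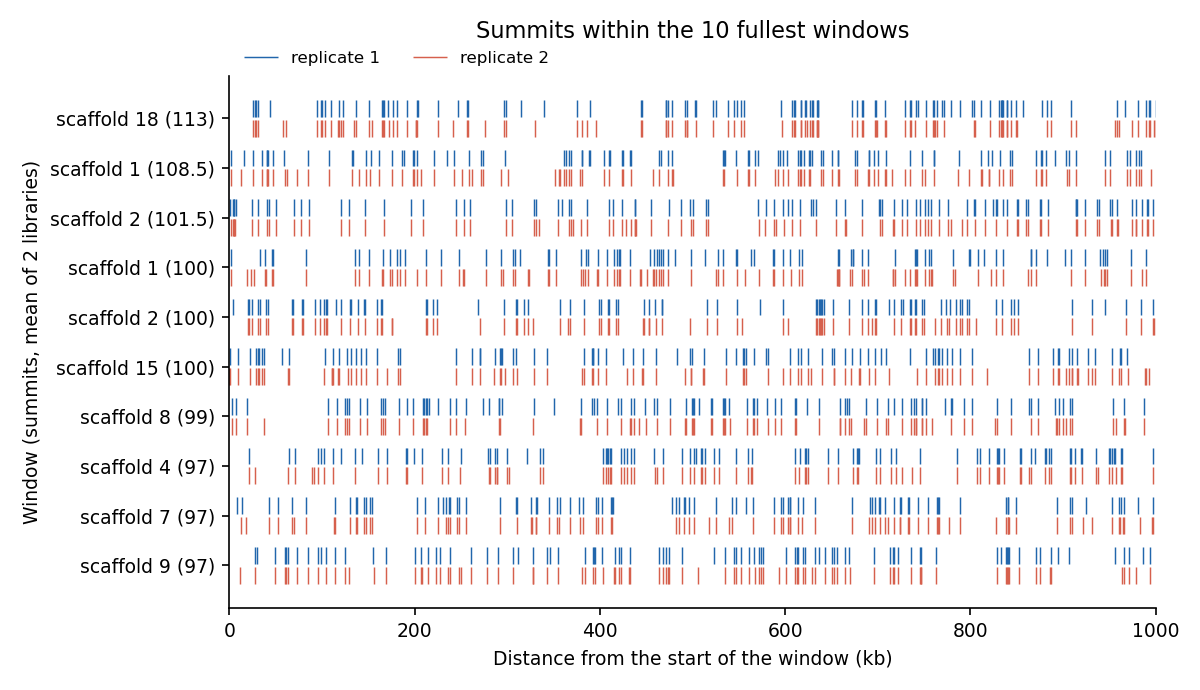
Positions of all summits in the 10 windows with the highest counts, as the distance from the start of the window in kb, with replicate 1 in blue above replicate 2 in red and the mean count in brackets. Summits span each window from end to end, in short runs separated by gaps, and most marks have a partner in the other library.

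Summits in dense windows were more often grouped. A cluster was defined as 3 or more summits each within 2 kb of the next. In replicate 1, 418 summits of dense windows (8.08%) lay in 133 clusters, where 5.57% of the summits of all 611 windows did. In replicate 2 it was 475 summits (8.79%) in 149 clusters, where the share over all windows was 6.24%. The difference from the other windows was 2.94 ± 0.0275 percentage points (SD, n = 2 libraries), and the share was higher in both libraries on 13 of the 17 scaffolds and mixed on 4. The share rises with the number of summits, on which the windows were chosen, so these values are a description.

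A higher count alone brings summits closer together. Uniform placement at each window's own number of summits would by formula put 7.49% of the dense-window summits in clusters and 4.16% of the others, and the observed shares were 8.44% and 5.50%. In dense windows the observed share was 1.12 times the formula value in replicate 1 and 1.13 times in replicate 2. In windows with 65 to under 85 summits it was 1.12 and 1.21 times, so the 2 classes were level in replicate 1. The ratio was higher in poorer windows, 1.56 and 1.52 times from 45 to under 65 summits and 2.84 and 2.67 times under 45. The formula is a yardstick without an error of its own and was not used as a test.

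Clusters in dense windows were small. Of the 282 clusters counted over both libraries, 243 held exactly 3 summits. Merged over the libraries they occupied 199 places with a median span of 2.44 kb, and 83 of these (41.7%) were a cluster in both libraries. They were spread over 52 of the 58 windows. The largest was on scaffold 2 from 57633213 to 57641972, with a cluster of 7 summits in replicate 2 over 8.76 kb. Replicate 1 had 6 summits there, of which 5 met the definition of a cluster. It was followed by scaffold 4 from 51406862 to 51412291 with 5 and 4 summits, and by a pair of clusters in 1 window of scaffold 8, from 8143234 to 8146834 and from 8187604 to 8191930, each with 5 and 4. The window of scaffold 18 from 2000001 to 3000000 had 10 such places over both libraries, more than any other dense window. The share of its summits in clusters differed between the libraries, with 14.7% in replicate 1 and 27.4% in replicate 2. In replicate 1 the highest share was instead 19.8%, on scaffold 8 from 8000001 to 9000000, where replicate 2 had 18.8%.

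Peak width hardly differed. The median width was 376 bp in replicate 1 and 374 bp in replicate 2 in dense windows, and 369 and 366 bp in the others, a difference of 7.50 ± 0.707 bp (SD, n = 2 libraries). By scaffold the median was higher in both libraries on 7 of 17, lower on 4 and mixed on 6. The interquartile range of the dense-window peaks ran from 264 to 542 bp, many times the difference. Windows under 45 summits had the narrowest peaks, with a median of 338.5 bp, and from 45 summits on the medians of 366.5, 371 and 375 bp were close to each other.

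Wide peaks of 1 kb or more numbered 156 in replicate 1 (3.02%) and 157 in replicate 2 (2.91%) in dense windows, where 2.62% of all peaks in the 611 windows were as wide in either library. Every one of them overlapped a peak of the other library. The widest in 1 library was a peak of 2464 bp in replicate 1, in the window of scaffold 18 from 2000001 to 3000000. By the lower of the widths of matched peaks, the first was on scaffold 9 from 22698135 to 22700236. It was 2102 bp wide in replicate 1 and 2098 bp in replicate 2. In this ranking it was second among the 30518 peaks of the 611 windows matched between the libraries. Next were scaffold 7 from 14834659 to 14836464 (1756 and 1806 bp) and scaffold 22 from 7608863 to 7610614 (1750 and 1740 bp). Wide peaks had more fragments at their summit, with a median of 86 against 35 in narrower ones. Their share in clusters was 0.641% in replicate 1 and 1.91% in replicate 2, which rests on very few peaks.

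Through count and width together, peaks covered 3.98% ± 0.0835 of a dense window and 2.54% ± 0.0872 of the others (SD, n = 2 libraries). The ratio was 1.56 ± 0.0207. The highest coverage was 5.04%, on scaffold 2 from 57000001 to 58000000, and the lowest 3.36%, on scaffold 13 from 20000001 to 21000000.

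**Figure D5:**
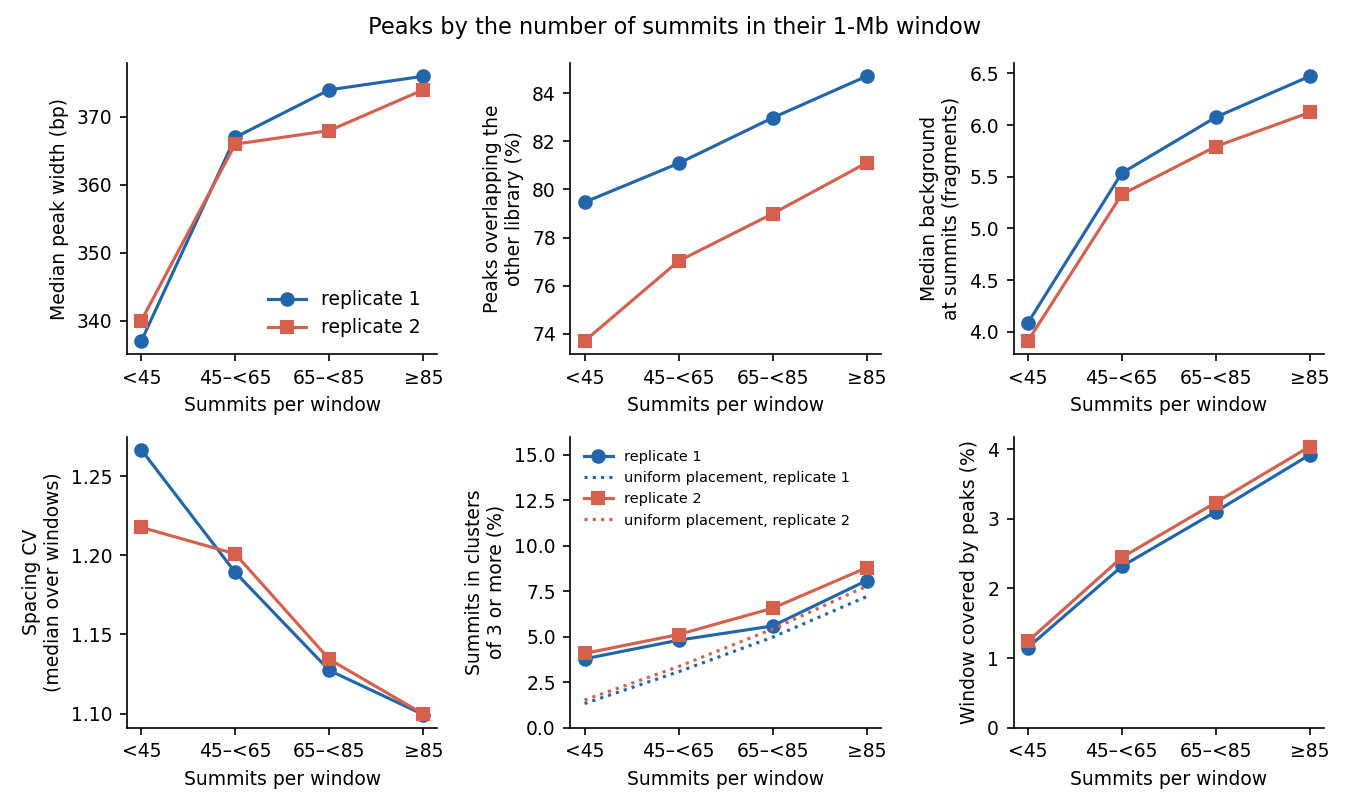
Measures of peaks by the number of summits in their 1-Mb window (x axis: under 45, 45 to under 65, 65 to under 85, and 85 or more) in replicate 1 (blue circles) and replicate 2 (red squares), with dotted lines for the cluster share that uniform placement gives. From the lowest to the highest class the mean of the libraries went from 338.5 to 375 bp in median width, from 76.6 to 82.9% in overlap, from 4.0 to 6.30 fragments in background, from 1.24 to 1.10 in CV, from 3.94 to 8.44% in clusters and from 1.20 to 3.98% in coverage, and the axes of the first 4 panels do not start at 0.

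The peaks of dense windows were found again in the other library slightly more often. In replicate 1, 84.7% of them overlapped a peak of replicate 2, where the share was 82.4% over all 611 windows. In replicate 2 it was 81.1%, where the share over all windows was 78.3%. The difference from the other windows was 2.99 ± 0.392 percentage points (SD, n = 2 libraries), and the share was higher in both libraries on 13 of 17 scaffolds. Both libraries were used to choose the windows, so the difference is a description. With windows chosen in 1 library it was 1.60 to 2.21 points, measured on the peaks of that same library. How far overlap by position alone, at a coverage of 3.98% against 2.54%, set the overlap difference was not tested. The summits of matched pairs were as close as elsewhere, with a median distance of 40 bp over 4342 pairs in dense windows and of 38 bp over 26176 pairs in the others.

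Dense windows had more signal at their summits, and a higher modelled background. The median number of fragments at a summit was 36 in both libraries, against 32 and 33 in the other windows. The background was 6.47 and 6.12 fragments against 5.73 and 5.46, a difference of 0.70 ± 0.0557 (SD, n = 2 libraries) that was positive in both libraries on 16 of 17 scaffolds. How far the higher background follows from the number of nearby peaks, on which the windows were chosen, was not tested. Only 8.08% of dense-window peaks had the genome-wide background, the lowest value the peak caller can assign, against 14.6% in the others. Fold enrichment, the ratio of the 2 quantities, was correspondingly close, with medians of 4.73 and 5.01 in dense windows and of 4.80 and 5.06 in the others. Its difference was -0.0608 ± 0.00949, and by scaffold it was lower in both libraries on 8 of 17, higher on 3 and mixed on 6. The part of the background in these fold values was not tested.

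Among the members, clustered peaks were narrower and had a lower fold than solitary ones. Peaks in clusters had a median width of 330.5 ± 7.78 bp and a median fold of 3.95, and peaks with no neighbour within 2 kb, 64.7% of the members, had 394 ± 3.18 bp and 5.31 (SD, n = 2 libraries). Pairs were between them with 354 bp and 4.41. Fragments at the summit were not fewer in clusters, with a median of 40.5 against 35.5 in solitary peaks, while the background was 9.40 against 5.74 fragments. The share found in the other library was 84.4% in clusters and 83.1% among solitary peaks. Members listed in 1 library only, 17.1% of all, were weak, with a median width of 235 bp and 20 fragments.

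The strongest members had far higher values. On scaffold 15 from 11968711 to 11969239 the fold was 19.7 in replicate 1 and 23.3 in replicate 2, which ranked sixth by the lower of both values among the 30518 matched peaks. The next were on scaffold 4 from 16789856 to 16790373 (17.1 and 17.5), on scaffold 14 from 12359788 to 12360313 (16.3 and 18.8) and on scaffold 10 from 18740159 to 18740687 (16.4 and 16.2). These 4 peaks were 321 to 529 bp wide and had no neighbouring summit within 2 kb in either library. Next in rank was scaffold 6 from 13591505 to 13591990 (16.1 and 18.6), which had a neighbouring summit within 2 kb in replicate 2.

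The 58 windows varied among themselves. Their median peak width ran from 298.5 bp on scaffold 12 from 14000001 to 15000000 to 427.5 bp on scaffold 2 from 57000001 to 58000000. Their median fold ran from 4.05 to 5.44, the overlap between libraries from 73.5% to 89.2% and the CV of spacing from 0.894 to 1.5. The share in clusters was 0% on scaffold 1 from 12000001 to 13000000 and 21.0% at most, all as means of the libraries. The fullest window, on scaffold 18 from 2000001 to 3000000, had the shortest median spacing in both libraries (4.96 and 4.32 kb). Its background was also the highest in both (9.99 and 9.86 fragments). Its median of 46 fragments at the summits was the highest in replicate 2. In replicate 1 its median of 45 was equalled on scaffold 2 from 57000001 to 58000000. The median fold of the scaffold 18 window, 3.96, was the lowest in replicate 1. In replicate 2 its value of 4.13 was above the 4.08 of scaffold 1 from 55000001 to 56000000. The lowest background in both libraries was on scaffold 2 from 33000001 to 34000000 (4.66 and 4.26 fragments). The range of each of these measures among the dense windows was wider than the difference between dense and other windows.

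Positions of 2 kinetochore-related genes could be read from the study's supplement. *KNL1*, which encodes a scaffold protein of the kinetochore, lay on scaffold 5 between 32000001 and 33000000, in a window with 41 and 47 summits. *SURVIVIN*, which encodes a subunit of the chromosomal passenger complex, lay on scaffold 10 between 19000001 and 20000000, in a window with 61 and 68 summits that adjoined a dense window. Neither gene lay in a dense window.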

How the data were processed

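Nuclei of fresh leaves were treated with TDE1, and each library was sequenced in paired-end mode. The authors trimmed reads with fastp, mapped them with BWA-MEM onto their own assembly, removed duplicates and reads under a mapping quality of 30 with SAMtools and called peaks in each library with MACS at a q of 0.01, without pooling. Tool names follow the submitters' processing notes and the methods. The sources used here do not give the genome size, the read shift or extension, or any control passed to MACS.

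The deposited peak lists hold starts, ends and summits, a score, a fold enrichment (a ratio over the modelled background), and the −log10 p and −log10 q of the summit, as the authors made them. The deposited score was not used, being a rounded form of the q-value. The lowest −log10 q was 2.00 in both lists. Positions refer to the authors' scaffolds and count from 1.

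Read depth is not in the lists. Fragments at the summit and background were solved from fold = (fragments + 1) / (background + 1) and the Poisson p, which gave whole fragments for 100% of peaks within a relative error of 0.0001. The genome-wide background was 3.38 and 3.18 fragments. Sites with less signal than the caller requires are not listed, so a gap is a gap in calls.

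Values were computed per library and averaged, and the SD is between libraries. Overlap needed 1 bp. The cluster share under uniform placement was 1 − (1 + 2p)(1 − p)(1 − p), where p is the chance of a summit within 2 kb at the window's density. Over 2 libraries the smallest two-sided sign-flip p is 0.5, and the measures come from the lists that chose the windows, so no test was made. Windows and peaks were named by rank: the 10 fullest windows, the windows next to the threshold, the longest stretches and the strongest, widest and most clustered peaks. Members, measures and lists were chosen with earlier results of these data known. The code was tested on simulated data. Analyses ran in Python 3.11.15 (pandas 2.3.3, numpy 2.4.6, scipy 1.17.1), with plots from matplotlib 3.10.9.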

Additional observations from a re-analysis of the deposited data

How the results depend on the processing

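As means of the libraries, the differences in width, fold, overlap, CV and clusters kept their sign under the alternatives. The width difference with overlapping peaks only, however, had opposite signs in the 2 libraries. The rest of the 8 results, the number of dense windows, the adjoining share and the coverage ratio, were not checked for a reversal. The number of dense windows was 58, 105 at a threshold of 80, 29 at 90, and 56 with the grid moved by 500 kb, and from 1 library it was 46 to 78. When peaks below a −log10 q of 5 were dropped 8 windows were left, and 5 when only overlapping peaks were kept, because fewer peaks enter. Ranked by those peaks instead, an alternative chosen after seeing the data, the top 58 windows shared 48 and 49 with the members. The adjoining share with either peak filter refers to the 8 and 5 windows. All differences and the coverage ratio with these filters keep the 58 windows of the main rule. The adjoining share, 37.9%, was 17.2% at 90, 0% with either peak filter and 30.4 to 41.0% from 1 library. The width difference, 7.5 bp, was 9.5 bp at 80, 11.25 bp at 90, 10.5 bp on the moved grid, 6.5 bp with the q filter, 1.5 ± 6.36 bp (SD, n = 2 libraries) with overlapping peaks and 6 to 9 bp from 1 library. The fold difference was -0.0940 at 90, -0.0850 on the moved grid, -0.117 with the q filter, -0.169 with overlapping peaks and -0.176 to -0.0556 from 1 library. The overlap difference was 2.52 points on the moved grid, 1.89 with the q filter and 1.60 to 2.21 with windows chosen in 1 library. The CV difference was -0.0572 at 90, -0.0900 on the moved grid and -0.0749 to -0.0522 from 1 library. The cluster difference, 2.94 points, was 2.04 at 80, 3.56 at 90, 2.15 on the moved grid, 2.53 with the q filter, 3.05 with overlapping peaks, 2.75 with midpoints, 2.58 to 3.12 from 1 library, 0.489 with neighbours within 1 kb and 8.16 within 5 kb. The coverage ratio was 1.61 at 90, 1.60 with overlapping peaks and 1.54 to 1.60 from 1 library. The cause of these shifts was not tested.

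Further alternatives were chosen after seeing the data. Against windows with 65 to under 85 summits, the differences were 4 bp in width, -0.0215 in fold, 1.92 points in overlap, -0.0313 in CV and 2.36 points in clusters, and the coverage ratio was 1.26. Without scaffolds 2 and 7, 37 windows remained, 24.3% adjoined another, and the differences were 4 bp in width, -0.155 in fold and 4.24 points in clusters. No paired analysis was possible because both libraries belong to 1 group.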
